A study of Mus musculus with 62 samples.

Results

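The ventral striatum libraries of an ethanol study in mice were examined for effects of ethanol that differed with exposure history. All libraries labelled as ventral striatum were taken, which gave 12 of the 62 samples of the series. They form 4 groups of 3: acute saline (mice 2, 4 and 6), acute ethanol (mice 2, 3 and 5), chronic saline (mice 3, 5 and 6) and chronic ethanol (mice 1, 4 and 6). The animals were male C57BL/6J mice aged 8 to 10 weeks. Acute animals had 1 intraperitoneal injection and chronic animals had 10 at a daily interval, each of saline or of 2 g/kg ethanol given as a 20% solution in saline, and all were killed 4 h after the last one. The saline groups of the 2 paradigms therefore differ in injection number themselves. Each library holds polyadenylated RNA from a tissue punch of 1 mouse, and different mice make up the 4 groups. Per the methods of the study, the ventral striatum libraries shared a preparation kit and a sequencing platform. Whether all were prepared and sequenced together is not stated there. A difference in preparation or sequencing between the groups was not tested. The paradigm × treatment interaction tested here is the chronic ethanol effect minus the acute ethanol effect, on the log2 scale. It is positive for a gene that ethanol lowers after 1 dose and raises after 10, and negative for the opposite order.

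The ventral striatum, which holds the nucleus accumbens and the olfactory tubercle, receives dopamine from the ventral tegmental area and is known for its part in reward and in responses to drugs of abuse. Most of its neurons are GABAergic spiny projection neurons of the direct pathway, marked by the dopamine receptor Drd1 and the peptide Tac1, or of the indirect pathway, marked by Drd2 and Penk. Myelinating oligodendrocytes are abundant in the fibre bundles of the anterior commissure and around it, so a punch can hold more or less white matter, and the lateral ventricle with its choroid plexus lies close by.

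Gene counts summed to between 10142093 and 20428676 per library. Levels below are CPM, the counts of a gene per 1000000 counts of its library, with library totals scaled by the trimmed mean of M values. Markers of striatal projection neurons were high in every library: Ppp1r1b, the phosphoprotein that mediates dopamine signalling, lay between 787 and 1621 CPM, and Pde10a, a phosphodiesterase of these neurons, between 393 and 1185 CPM. A list of 8 genes that favour ventral over dorsal striatum (Drd3, Calcr, Dlk1, Wfs1, Crym, Nts, Cartpt and Tac2) separated 2 libraries from the others. Its mean log2 CPM was 2.89 in chronic saline 3 and 2.72 in chronic saline 6, against 4.57 to 5.43 in the other 10. Dlk1, a delta-like homologue of Notch ligands, stood at 11.5 and 24.2 CPM in those libraries and at 55.7 to 149 CPM elsewhere. Chronic saline 6 also carried choroid plexus RNA: Ttr, the thyroid hormone carrier that this epithelium secretes, was at 2701 CPM there and at 195 CPM or less in the other 11. Both libraries belong to the group on which the chronic effect and the interaction depend, so several results that lean on them are also given without them. That fit leaves chronic saline 5 as the only library of its group, which is then assumed to vary like the others. Of a list of 12 genes of pallial excitatory neurons, which are not striatal cells, 11 had lower values with ethanol in each paradigm. Their mean log2 CPM was 4.22, 4.72 and 5.14 in acute saline against 3.29, 1.55 and 2.40 in acute ethanol. It was 5.13, 2.78 and 4.50 in chronic saline against 1.66, 2.79 and 1.64 in chronic ethanol, so the chronic groups overlapped by a narrow margin. Defining members were not at 0 in any group. Slc17a7, the vesicular glutamate transporter of cortical neurons, ranged from 263 to 679 CPM in acute saline, from 10.98 to 98.3 CPM in acute ethanol, from 35.5 to 565 CPM in chronic saline and from 4.93 to 56.9 CPM in chronic ethanol. The median effect over the list was -2.70 after acute and -2.71 after chronic ethanol, and its median interaction was -0.22 with 0 of 12 genes at an unadjusted edgeR p below 0.05. In tissue punches, fewer cells of a type and less RNA per cell cannot be told apart.

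**Figure D1:**
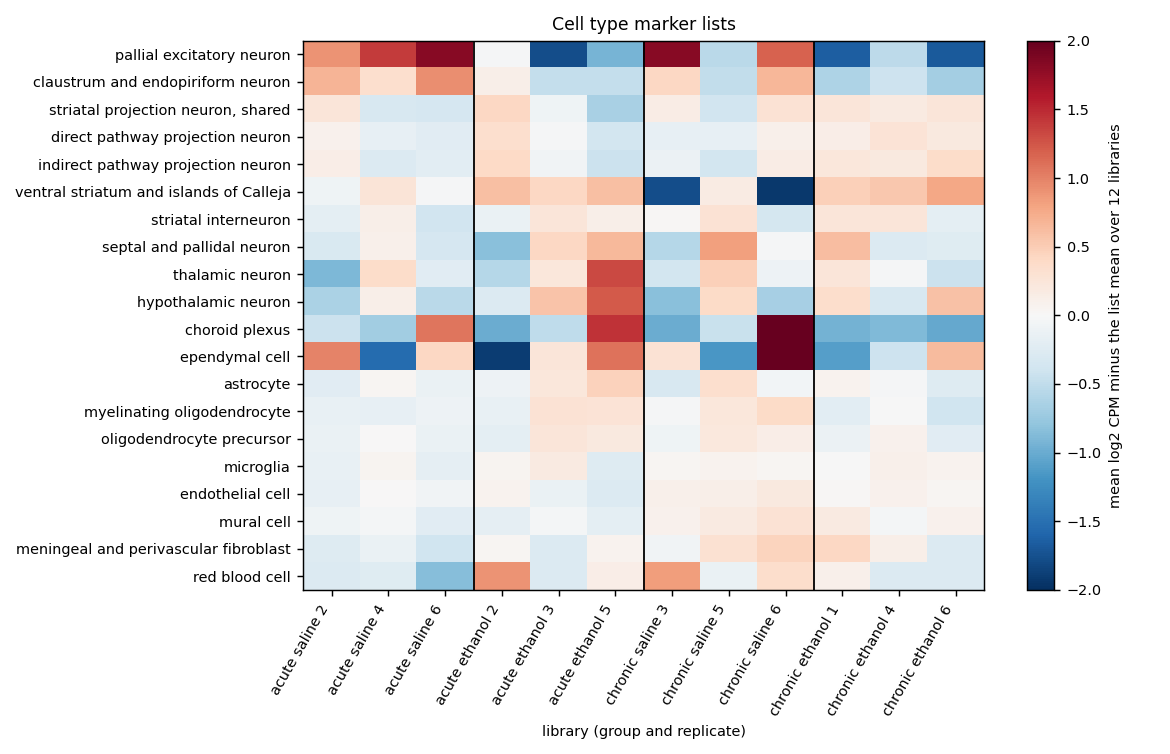
Cell type lists in the 12 ventral striatum libraries. Each row is a marker list and each column a library, and the colour is the list's mean log2 CPM minus its mean over the 12 libraries (colour scale limited to ±2, so values beyond it share the end colours). Chronic saline 3 and 6 stand low for the ventral striatum list, chronic saline 6 stands high for choroid plexus, and the pallial list is lower in ethanol columns of both paradigms.

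No gene passed a false discovery rate (FDR) of 0.1 for the interaction with the quasi-likelihood test of edgeR (0 of 20901 genes, 0%), and the smallest FDR was 0.298, for Neat1. At an unadjusted edgeR p below 0.05 there were 965 genes (4.62% of those tested), of which 618 were negative (2.96%) and 347 positive (1.66%). DESeq2 called 4 genes at the same FDR (0.0191%), all negative: Neat1, Prox1, Cobll1 and Gm55524. The effects of each paradigm on its own were also few. For acute ethanol 0 genes (0%) passed in edgeR, with 1517 (7.26%) at an unadjusted p below 0.05, and 133 (0.636%) passed in DESeq2. For chronic ethanol 1 gene (0.00478%), Neat1, passed in edgeR and 354 (1.69%) in DESeq2. The mean of both effects, by contrast, gave 261 DEGs in edgeR (1.25%), 96 higher (0.459%) and 165 lower (0.789%) with ethanol. DESeq2 gave 767 (3.67%), 279 higher (1.33%) and 488 lower (2.33%). The median log2 fold change over all genes was 0.00 for the acute effect, -0.01 for the chronic effect and 0.00 for the interaction, which the scaling of library totals sets near 0.

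**Figure D2:**
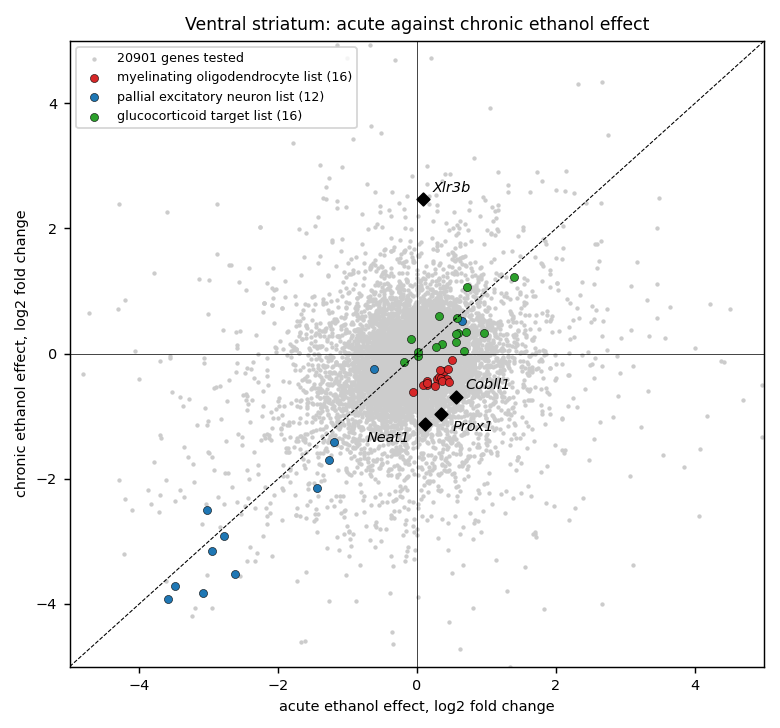
Acute against chronic ethanol effect in the ventral striatum for the 20901 genes tested, each axis a log2 fold change of ethanol over saline and the dashed line marking equal effects (56 genes lie beyond the axes, which end at ±5). Pallial neuron genes (blue) lie low in both effects close to the line, glucocorticoid target genes (green) mostly above 0 in both, and the 16 myelin genes (red) below 0 for chronic and mostly above 0 for acute ethanol. Neat1, Prox1, Cobll1 and Xlr3b are marked with diamonds.

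The gene with the smallest interaction p was Neat1 (chromosome 19: 5874736-5897132, minus strand, GRCm39), the long noncoding RNA around which nuclear paraspeckles assemble. Neat1 was at 41.0, 44.9 and 51.9 CPM in acute saline and at 44.6, 50.4 and 53.8 CPM in acute ethanol. It was at 78.9, 81.4 and 89.8 CPM in chronic saline and at 46.0, 37.3 and 31.9 CPM in chronic ethanol. The 3 chronic saline libraries thus lay above all other 9, as they did for 0.809% of all genes, and the remaining groups overlapped or lay side by side. Genes picked by their interaction p separate in such ways more often. This separation held for 60 of the 618 negative genes at an unadjusted edgeR p below 0.05. The same limit applies to the other genes named by that p. The chronic effect was a fall by 1.12 ± 0.13 (SE) on the log2 scale (edgeR FDR = 0.0178), the acute effect was 0.11 ± 0.13 and the interaction -1.23 ± 0.19 (edgeR FDR = 0.298, DESeq2 FDR = 6.43e-05). Chronic saline exceeded acute saline by 0.86, while chronic ethanol differed from acute ethanol by -0.37, 2 contrasts added after seeing the data that share their libraries with the interaction. Without chronic saline 3 and 6 the chronic effect no longer passed the FDR, nor did it without chronic saline 6, chronic ethanol 4 or chronic ethanol 6 alone (0 genes in each). The interaction was -1.20 without chronic saline 3 and 6, and over the fits that left out 1 library it ran from -1.38 to -1.12. Gm55524 (chromosome 19: 5894666-5894775, minus strand) is a short RNA annotated inside Neat1 on the same strand and, as overlapping features were each given the read pair, it carries reads of Neat1. Its interaction of -1.62 ± 0.34 is therefore uncertain as a separate observation.

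Prox1 (chromosome 1: 189850232-189902911, minus strand), a homeodomain transcription factor known from lymphatic endothelium and dentate granule neurons, was lowest after chronic ethanol. It was at 14.5, 13.3 and 13.7 CPM in acute saline, at 14.98, 14.8 and 23.0 CPM in acute ethanol, at 19.2, 22.9 and 18.8 CPM in chronic saline and at 10.8, 10.9 and 9.28 CPM in chronic ethanol. All 3 chronic ethanol libraries lay below the other 9 (0.617% of all genes), and the interaction was -1.32 ± 0.24 (edgeR FDR = 0.914, DESeq2 FDR = 0.0144). That separation held for 41 of the 618 negative genes at an unadjusted edgeR p below 0.05. Cobll1 (chromosome 2: 64918683-65069747, minus strand), a relative of the actin nucleator cordon-bleu, instead differed in both paradigms. It was at 8.40, 7.38 and 7.59 CPM in acute saline and at 10.3, 10.6 and 13.7 CPM in acute ethanol. In the chronic groups it was at 11.9, 15.03 and 16.6 CPM with saline and at 8.27, 9.06 and 9.69 CPM with ethanol. The acute groups did not overlap and neither did the chronic ones, in the opposite direction, which gave 0.57 ± 0.17 for the acute effect, -0.69 ± 0.17 for the chronic effect and -1.25 ± 0.24 for the interaction (edgeR FDR = 0.914, DESeq2 FDR = 0.0376). The share of all genes that separate saline from ethanol within a paradigm was not counted, for Cobll1 or for Plch2, Mobp and Fkbp5 below. Without chronic saline 3 and 6 the interaction was -1.503 for Prox1 and -1.31 for Cobll1.

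**Figure D3:**
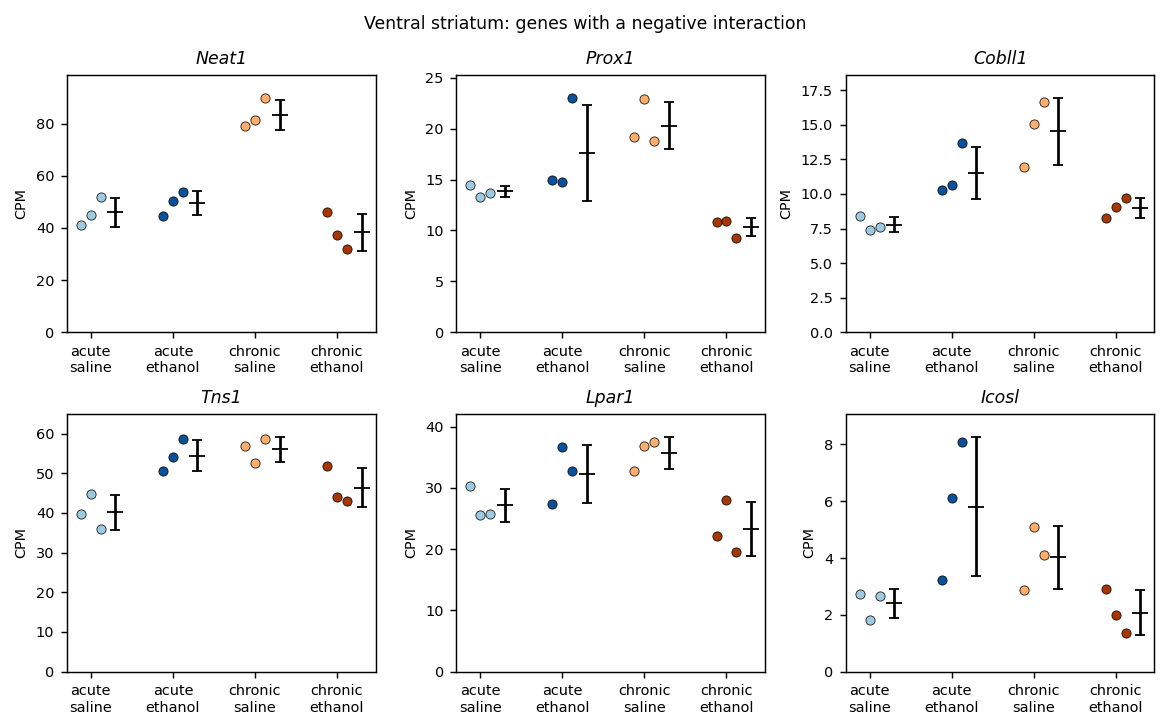
CPM of genes with a negative interaction in the 12 ventral striatum libraries (points), with group means (bars) and SD (error bars), n = 3 per group. Neat1 is highest in the 3 chronic saline libraries (78.9 to 89.8 CPM) and Prox1 lowest in the 3 chronic ethanol libraries (9.28 to 10.9 CPM).

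Other genes of the negative direction had the crossed order of group means of Cobll1 without passing the FDR in either tool. Tns1, the focal adhesion protein tensin 1, averaged 40.2 ± 4.39 CPM (SD, n = 3) in acute saline, 54.4 ± 3.96 in acute ethanol, 56.0 ± 3.06 in chronic saline and 46.3 ± 4.88 in chronic ethanol, an interaction of -0.71 ± 0.15. Tmbim1, a membrane protein of the BAX inhibitor family, gave -0.71 ± 0.17, and Lpar1, a receptor for lysophosphatidic acid that oligodendrocytes express, gave -0.86 ± 0.21. Icosl, a costimulatory ligand of T cells, was at 1.35 to 8.08 CPM over all libraries and gave -2.22 ± 0.53. The noncoding RNA 2610035D17Rik followed another order. It was at 9.18, 8.57 and 9.15 CPM in acute saline, below the other 9 libraries (0.66% of all genes), and at 15.7, 17.4 and 17.5 CPM in acute ethanol, above the other 9 (0.364%). The chronic groups lay between and overlapped (12.0, 14.0 and 14.0 CPM with saline and 12.6, 15.4 and 11.4 CPM with ethanol). Its interaction of -0.92 ± 0.20 thus came with an acute effect of 0.91 ± 0.14 (edgeR FDR = 0.122) and a chronic effect of -0.02 ± 0.14.

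Genes with a positive interaction were fewer, and several were low in chronic saline alone. Scg2, which encodes secretogranin II, a precursor of peptides stored in dense-core vesicles, was among the 10 with the smallest p. It was at 485, 445 and 562 CPM in acute saline, at 600, 465 and 539 CPM in acute ethanol, at 264, 355 and 269 CPM in chronic saline and at 478, 518 and 593 CPM in chronic ethanol. The chronic saline libraries lay below the other 9 (0.804% of all genes), which otherwise overlapped, and the interaction was 0.73 ± 0.19 (edgeR FDR = 0.997). That separation held for 54 of the 347 positive genes at an unadjusted edgeR p below 0.05. Leaving out chronic saline 3 and 6, the libraries low in ventral markers, gave 0.47 for Scg2. Cpne6, the calcium-dependent membrane-binding protein copine 6, had the same order. It was at 83.3, 118 and 118 CPM in acute saline, at 102, 106 and 106 CPM in acute ethanol, at 70.2, 79.5 and 61.6 CPM in chronic saline and at 104, 116 and 125 CPM in chronic ethanol. The interaction of Cpne6 was 0.73 ± 0.19 (edgeR FDR = 0.971) and 0.55 without chronic saline 3 and 6. The chemokine Cxcl14 (0.58 ± 0.15) and the noncoding RNA Gm28578 (1.15 ± 0.29) were likewise lowest in the 3 chronic saline libraries, and without chronic saline 3 and 6 they gave 0.49 and 1.12.

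In Plch2 and Ptgs2 the acute effect was the larger one. Plch2, a phospholipase C of the eta type, was at 36.5, 60.9 and 61.6 CPM in acute saline and at 29.6, 23.1 and 25.2 CPM in acute ethanol, against 28.8 to 38.8 CPM in chronic saline and 30.0 to 36.7 CPM in chronic ethanol. The acute groups did not overlap and the chronic ones did, with an acute effect of -1.03 ± 0.18, a chronic effect of 0.01 ± 0.18 and an interaction of 1.03 ± 0.26. Ptgs2, which encodes the inducible cyclooxygenase, gave -1.46 ± 0.35 for the acute effect, 0.33 ± 0.35 for the chronic effect and 1.79 ± 0.50 for the interaction. Pak6, a p21-activated kinase, gave -0.37 ± 0.13, 0.35 ± 0.13 and 0.72 ± 0.18 in the same order. Dnal4, a dynein light chain, had its highest levels in the 3 chronic ethanol libraries (42.6, 46.5 and 48.8 CPM against 33.4 to 41.9 CPM in the other 9, a separation found in 0.655% of all genes). Its interaction of 0.54 ± 0.13 came with a chronic effect of 0.39 ± 0.09 and an acute effect of -0.14 ± 0.09. Glt8d2 gave 1.71 ± 0.46 at 2.13 to 8.07 CPM.

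**Figure D4:**
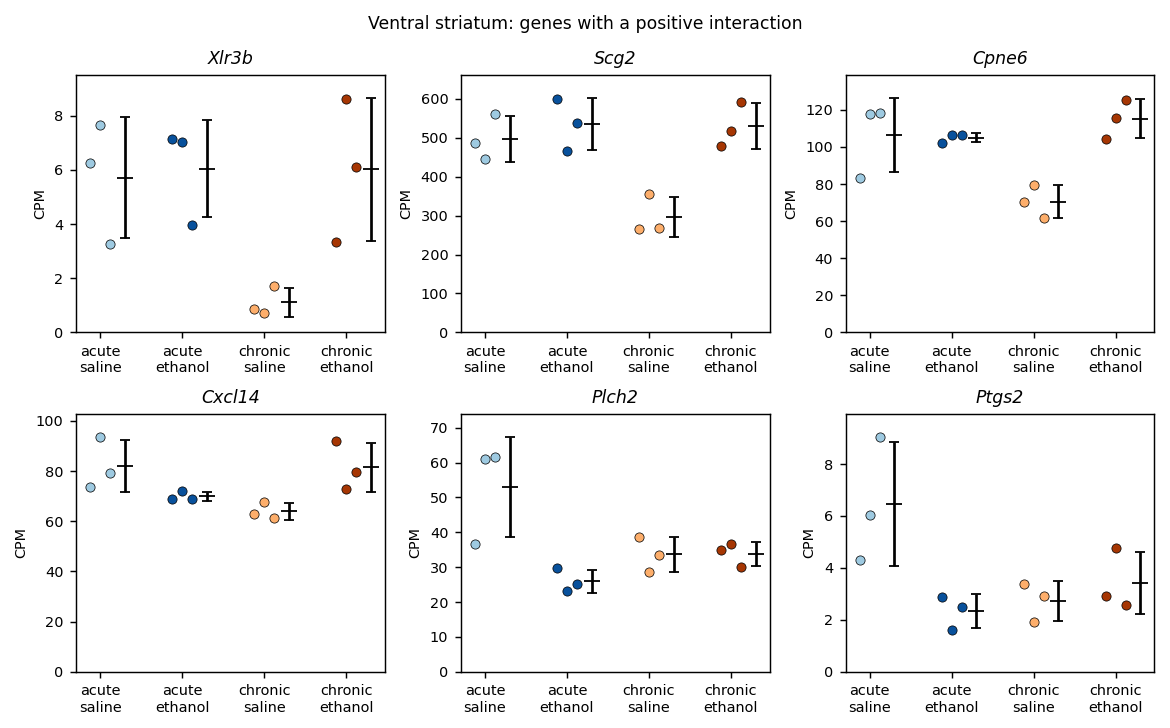
CPM of genes with a positive interaction in the 12 ventral striatum libraries (points), with group means (bars) and SD (error bars), n = 3 per group. Scg2, Cpne6 and Xlr3b are lowest in the 3 chronic saline libraries, and Plch2 is highest in acute saline.

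Xlr3b (chromosome X: 72235813-72246536, plus strand), a gene of the X-linked lymphocyte-regulated cluster, had the largest interaction of those 10. It was at 6.25, 7.66 and 3.25 CPM in acute saline, at 7.15, 7.02 and 3.98 CPM in acute ethanol, at 0.878, 0.730 and 1.71 CPM in chronic saline and at 3.34, 8.61 and 6.12 CPM in chronic ethanol. The chronic saline libraries lay below the other 9 without overlap (0.804% of all genes), and the 9 did not separate by group. The interaction was 2.38 ± 0.60 (edgeR FDR = 0.971) from an acute effect of 0.09 ± 0.40 and a chronic effect of 2.47 ± 0.45. Of 6 genes in the Xlr3 list 5 could be tested, all with a positive interaction (median 1.01, against 49.9% of all genes). Xlr3b and Xlr3c (2.27 ± 0.89) reached an unadjusted edgeR p below 0.05, as did 1.66% of all genes in the positive direction. Without chronic saline 3 and 6 the interaction of Xlr3b was 2.95, 4 of the 5 were positive with a median of 1.01, and 1 was at that p. Xlr3a, Xlr3b and Xlr3c are near-identical copies, and read pairs that mapped to several places were counted for each, so their levels are not independent of one another.

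The other regions of the same mice allow Xlr3b to be followed by animal. Of the chronic saline mice in the ventral striatum, mouse 3 was at 0.357 CPM in cortex, 1.30 CPM in dorsal striatum and 0.505 CPM in ventral hippocampus. Mouse 5 was at 0.110 CPM in cortex and 0.530 CPM in dorsal hippocampus, and mouse 6 at 0.876 CPM in cortex, 1.68 CPM in dorsal striatum, 2.95 CPM in dorsal hippocampus and 2.24 CPM in ventral hippocampus. Another chronic saline mouse, number 2, has no library in the ventral striatum group and was at 6.47 CPM in dorsal hippocampus and 7.49 CPM in ventral hippocampus. Its dorsal striatum library holds no counts on chromosomes 7, 8, 9, X and Y or on mitochondrial genes, so it gives no level for Xlr3b and was left out of the dorsal striatum fit. In cortex, whose chronic saline libraries come from the same mice 3, 5 and 6, the other 9 libraries ranged from 2.25 to 6.38 CPM. The chronic saline mice thus differed among themselves, and in each region given for mice 3 and 5 their level was below every library of the other groups. The interaction of Xlr3b was 3.28 in cortex (edgeR FDR = 0.600), 2.36 in dorsal striatum (from mice 3 and 6 alone in chronic saline), 0.36 in dorsal hippocampus and -0.30 in ventral hippocampus. Whether it goes with injection history or with the individual mouse cannot be told apart in the ventral striatum, where mouse 2 is not among the libraries.

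Genes of myelinating oligodendrocytes gave the broadest pattern of the negative direction. These cells wrap axons with a membrane that is rich in myelin basic protein (Mbp), and their differentiation is driven by the transcription factors Sox10 and Myrf. All 16 genes of the list had a negative interaction and an unadjusted edgeR p below 0.05, where 2.96% of all genes did. Their median interaction was -0.68, against 0.00 over all genes, and 0 of them passed the FDR in edgeR or DESeq2. After acute ethanol 15 of 16 were higher (50.8% of all genes were), with a median of 0.32 and 7 at an unadjusted p below 0.05 (background 3.33%). After chronic ethanol 16 of 16 were lower (51.3% of all genes were), with a median of -0.42 and 11 at that p (background 5.35%). The saline groups differed by about as much. The 16 genes were all higher in chronic than in acute saline, as were 51.1% of all genes, with a median of 0.33 and 9 at an unadjusted p below 0.05 (background 3.41%). All were lower in chronic than in acute ethanol, as were 50.2% of all genes, with a median of -0.34 and 9 at that p (background 2.01%). These are further contrasts of the same libraries and not separate evidence. Markers of 1 cell type can rise and fall together with its share of the punch, so the 16 genes are not independent observations. The shares of all genes are therefore a background and no test of the list, here and for the other lists. The list was written with earlier results of these data known. More white matter in a punch and more RNA per cell cannot be told apart.

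Promoter letters of 2 members are shown because SOX family factors such as Sox10 recognise the core ACAAAG, and Mobp, the gene of a compact myelin protein, had one of the larger interactions of the list. The 250 bases before the annotated start were read from RefSeq on GRCm38.p6, an older build than that of the counts. The letters ACAAAG or their reverse complement CTTTGT, on either strand, are in capitals.
Mobp, chr9:120149492-120149741, plus strand: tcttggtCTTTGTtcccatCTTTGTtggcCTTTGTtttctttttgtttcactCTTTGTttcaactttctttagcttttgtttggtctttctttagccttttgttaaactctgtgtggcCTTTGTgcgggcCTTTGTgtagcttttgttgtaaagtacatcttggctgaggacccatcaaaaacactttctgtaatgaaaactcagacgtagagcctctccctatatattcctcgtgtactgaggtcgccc
Opalin, chr19:41077114-41077363, minus strand: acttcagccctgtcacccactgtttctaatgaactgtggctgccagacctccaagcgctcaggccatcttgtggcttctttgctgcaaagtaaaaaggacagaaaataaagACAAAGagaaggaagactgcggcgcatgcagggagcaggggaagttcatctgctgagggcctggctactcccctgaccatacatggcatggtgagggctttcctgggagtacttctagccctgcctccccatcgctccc
The Mobp promoter holds 6 matches and that of Opalin, an oligodendrocyte membrane protein, 1. Of the 16 myelin genes 11 had an entry, with 13 promoters in all. The letters were in 5 of the 13, those of Mobp, Opalin and Cnp and 2 overlapping ones of Mag that share 1 match. By gene they were in 4 of 11, so the 2 printed promoters are not typical of the list. Of 32851 promoters of this length 16.5% held them. A match is a run of letters and not a measured binding site.

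Mobp (chromosome 9: 119978773-120010550, plus strand, GRCm39) was at 861, 793 and 921 CPM in acute saline and at 912, 1269 and 1292 CPM in acute ethanol. In the chronic groups it was at 948, 1032 and 1259 CPM with saline and at 772, 937 and 731 CPM with ethanol. Acute ethanol 2 lay within the acute saline range while acute ethanol 3 and 5 lay above it, and the chronic groups did not overlap by a narrow margin. The interaction was -0.84 ± 0.21. Mag, an adhesion protein of the inner myelin face, was at 164, 174 and 172 CPM in acute saline, at 159, 259 and 233 CPM in acute ethanol, at 195, 234 and 275 CPM in chronic saline and at 167, 208 and 161 CPM in chronic ethanol. Acute ethanol 2 lay just below the acute saline libraries and acute ethanol 3 and 5 above them, the chronic groups overlapped, and the interaction was -0.74 ± 0.23. Myrf, at 40.5 to 86.3 CPM, gave -0.91 ± 0.22, the largest of the list. Sox10 differed mainly in the acute paradigm: it was at 28.3, 38.3 and 43.6 CPM in acute saline and at 42.4, 60.4 and 53.9 CPM in acute ethanol, with an acute effect of 0.50 ± 0.16 and a chronic effect of -0.11 ± 0.16. Ugt8a, the enzyme that makes the myelin lipid galactosylceramide, differed in the chronic paradigm, with -0.62 ± 0.13 for the chronic and -0.06 ± 0.13 for the acute effect. Aspa, which splits N-acetylaspartate in oligodendrocytes, was at 18.4, 23.2 and 19.5 CPM in chronic saline. These libraries lay above the other 9 (11.6 to 16.8 CPM), as they did for 0.809% of all genes. The interactions of the other members ran from -0.80 for Cldn11, the claudin of myelin tight junctions, to -0.58 for Ermn, a cytoskeletal protein of these cells.

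The mean log2 CPM of the 16 genes was 6.82, 6.79 and 6.86 in acute saline and 6.81, 7.25 and 7.23 in acute ethanol. It was 6.94, 7.19 and 7.35 in chronic saline and 6.75, 6.96 and 6.57 in chronic ethanol. Both pairs of groups overlapped, through acute ethanol 2 and through chronic ethanol 4, so the list did not separate every mouse. Leaving out single libraries kept all 16 genes negative and 13 to 16 of them at an unadjusted p below 0.05, the count was 15 without chronic saline 3 and 6, and it was 15 with the pallial list score as a covariate. The same 16 genes in the other regions had median interactions of -0.09 in cortex (0 at an unadjusted p below 0.05), -0.17 in dorsal hippocampus (1 of 16), 0.98 in ventral hippocampus (0 lower and 3 higher) and -0.19 in dorsal striatum (0, without the incomplete library). With that library in the fit, on the chromosomes complete there, the signs in dorsal striatum were mixed. The values then ran from -0.25 for Opalin to 0.43 for Ugt8a, with Mal at -0.0014 and Mbp at 0.10. The direction in dorsal striatum thus depended on that library. The difference between regions was not tested.

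**Figure D5:**
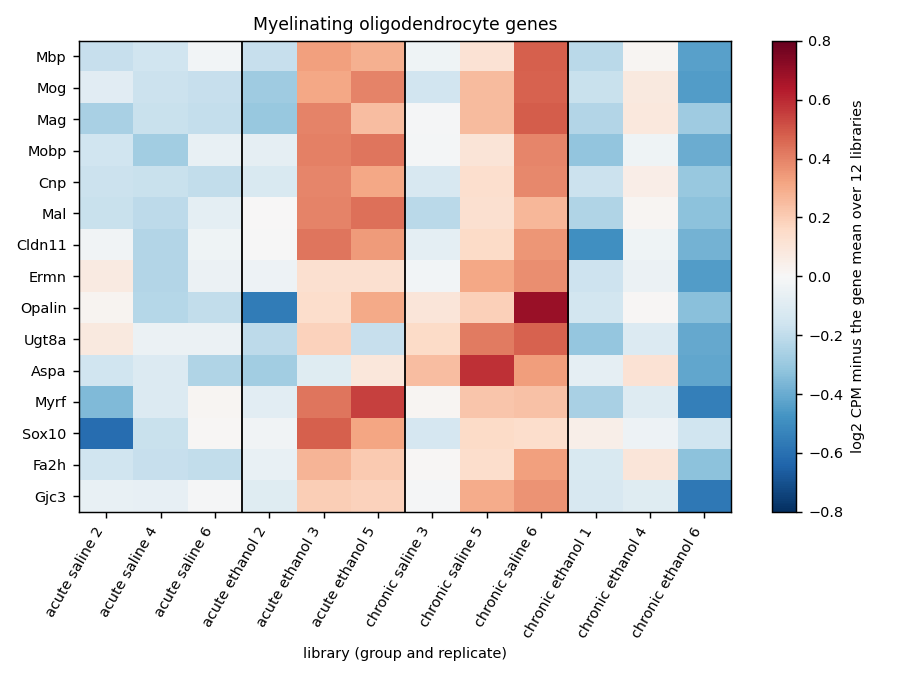
Members of the myelin list (15 of 16) in the 12 ventral striatum libraries, coloured by log2 CPM minus the gene's mean over the 12 libraries. Acute ethanol 3 and 5 and chronic saline 5 and 6 stand high for most genes, chronic ethanol 6 stands low, and acute ethanol 2 lies near the acute saline libraries.

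Other glial and non-neuronal lists were also negative on the whole, with few genes at an unadjusted p below 0.05. All 8 genes of oligodendrocyte precursors and all 12 of astrocytes had a negative interaction, against 50.1% of all genes. Their medians were -0.34 and -0.32, and 1 and 3 genes were at that p (background 2.96%). Those were Bcas1, which also marks newly formed oligodendrocytes (-0.76 ± 0.25), and in astrocytes the intermediate filament Gfap (-1.24 ± 0.46), the water channel Aqp4 (-0.48 ± 0.17) and the folate enzyme Aldh1l1 (-0.47 ± 0.19). Gfap reached 117 CPM in chronic saline 6, the library with choroid plexus RNA, and 24.8 to 75.8 CPM elsewhere, and its interaction was -0.82 without that library. The 10 choroid plexus genes tested of 12 had a median of -4.13 with 5 at that p, and without chronic saline 6 the median was -0.08 with 0. The 8 ependymal genes had a median of -1.21, and 0.23 without chronic saline 6. Microglial genes (median -0.15), endothelial genes (-0.09) and mural cell genes (-0.06) had 0 members at that p.

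Genes of red blood cells, which are not brain cells, were among the negative ones. All 5 globin and haem synthesis genes were negative with a median of -1.21 and an unadjusted edgeR p below 0.05, where 2.96% of all genes were. Hbb-bs, an adult beta globin, was at 99.5, 116 and 78.3 CPM in acute saline, 230 CPM in acute ethanol 2 against 89.0 and 132 CPM in acute ethanol 3 and 5, 196, 109 and 148 CPM in chronic saline, and 124, 96.8 and 88.6 CPM in chronic ethanol. The highest libraries, acute ethanol 2 and chronic saline 3, are not those with the highest myelin levels. A relation between the red blood cell and the myelin values was not tested. Without acute ethanol 2 the list median was -0.81 with 5 genes at that p, and without chronic saline 3 and 6 it was -0.69 with 0. Hba-a1 and Hba-a2 are near-identical copies whose counts are uncertain apart.

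Projection neuron genes showed little difference by exposure history. The 12 genes shared by both projection types had a median interaction of 0.01 with 0 at an unadjusted p below 0.05. The 8 direct pathway genes had 0.10 with 1 (Ebf1, -0.63 ± 0.25), and the 8 indirect pathway genes 0.13 with 1 (Upb1, 1.33 ± 0.51). Of all genes 2.96% were negative and 1.66% positive at that p. Drd1 was at 109 to 253 CPM with an interaction of 0.13 ± 0.37, Drd2 at 90.3 to 217 CPM with 0.17 ± 0.40 and Penk, the enkephalin precursor, at 716 to 1494 CPM with 0.26 ± 0.31. With these SEs a difference as large as that of the myelin genes was not detectable. The 12 interneuron genes had a median of -0.06 with 0. Ventral striatum genes were positive in 7 of 8 (median 0.83, 1 at that p), where 49.9% of all genes were positive and 1.66% positive at that p. Drd3, the dopamine receptor of the islands of Calleja, was at 1.38, 4.52 and 2.22 CPM in chronic saline and at 4.86, 4.93 and 10.0 CPM in chronic ethanol, with an interaction of 1.43 ± 0.60. Without chronic saline 3 and 6, the libraries low for these markers, it was 0.67 and the list median 0.25. Pdyn, the dynorphin precursor and no ventral marker in that list, was also lowest in chronic saline 3 (63.5 CPM, against 112 to 292 CPM in the other 11), with an interaction of 0.84 ± 0.44, and 0.75 without chronic saline 3 and 6. The 8 opioid peptide and receptor genes had 0 at that p (median 0.16).

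Genes induced by neuronal activity were lower after acute ethanol. All 16 immediate early genes were negative in the acute effect, as were 49.2% of all genes (median -0.79, 4 at an unadjusted edgeR p below 0.05, background 3.93%), and 11 of 16 in the chronic effect, against 51.3% of all genes (median -0.10, 0 at that p). The interaction was positive in 15 of 16 with a median of 0.42 and 1 gene at that p (49.9% and 1.66% of all genes), Fosl2, a member of the AP-1 family. Fosl2 was at 55.0, 40.3 and 94.2 CPM in acute saline, at 40.5, 41.8 and 14.3 CPM in acute ethanol, at 24.3, 12.0 and 9.39 CPM in chronic saline and at 16.0, 27.4 and 47.4 CPM in chronic ethanol. Both pairs of groups overlapped, with an interaction of 1.96 ± 0.66. Fos itself gave -1.36 for the acute and -0.92 for the chronic effect. Mean log2 CPM of the list was 5.78, 5.27 and 6.01 in acute saline, 5.06, 5.30 and 4.39 in acute ethanol, 5.37, 3.64 and 4.79 in chronic saline and 3.52, 4.90 and 5.08 in chronic ethanol. The acute groups overlapped narrowly and the chronic groups spanned almost the same range. All 16 genes were also lower in chronic than in acute saline, with a median of -0.80, where 51.1% of all genes were higher. That contrast shares the acute saline libraries with the acute effect and is not separate evidence. The pallial neuron list was lower in the same acute ethanol libraries (median -2.70), and in chronic saline both lists were lowest in library 5 and highest in library 3. Its part in the values of immediate early genes was not tested. The result depended on chronic saline 3 and 6: without them, and so against chronic saline 5 alone, the lowest of its group, the median was 1.99 and 12 of 16 genes were at that p.

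Glucocorticoid target genes were higher in ethanol in both paradigms with no detectable difference between them. Of 16 genes 14 were higher after acute ethanol, as were 50.8% of all genes (median 0.56, 9 at an unadjusted edgeR p below 0.05, background 3.33%) and 14 after chronic ethanol (median 0.28, 5 at that p, background 4.34%), where 48.7% of all genes were higher, and the interaction had a median of -0.17 with 0 genes at that p. Fkbp5, the cochaperone that dampens the glucocorticoid receptor, was at 51.7, 53.7 and 50.9 CPM in acute saline and at 75.0, 65.1 and 93.3 CPM in acute ethanol. It was at 37.1, 37.1 and 47.1 CPM in chronic saline and at 58.6, 62.6 and 58.2 CPM in chronic ethanol. Ethanol exceeded saline without overlap in both paradigms, by 0.58 ± 0.13 and 0.57 ± 0.13, and the interaction was -0.01 ± 0.18, while the level of both chronic groups was below that of the acute group with the same treatment. The mean of both Fkbp5 effects passed at an edgeR FDR of 0.0165. Plin4, a lipid droplet coat protein, gave 1.40 ± 0.39 and 1.22 ± 0.41, and Mt2, a metal-binding metallothionein, 0.55 ± 0.14 and 0.31 ± 0.14. Sgk1 (0.67 and 0.05) and Map3k6 (0.96 and 0.33) had larger values after acute ethanol, without an interaction at that p.

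Other genes of the shared effect were led downward by Zeb2, a zinc finger transcription factor (-0.72), B3galt2 (-1.17), Scube1 (-2.31), Sel1l3 (-1.51) and the chromatin organiser Satb1 (-1.02), and upward by the calcium-dependent kinase Camk1g (0.89), the adhesion protein Kirrel2 (0.76), Erich3 (0.40), Slc25a34 (0.65) and Fkbp5 (0.57), each at an edgeR FDR of 0.017. None of these 10 had an interaction at an unadjusted p below 0.05. Of the 261 shared DEGs 102 (39.08%) were at least 2-fold higher in the cortex than in the ventral striatum libraries, against 2259 of all genes tested (10.8%), and the pallial list was lower in the same ethanol libraries. The cortex libraries had another preparation kit and sequencing platform, and the study kept quantitative comparisons within regions for that reason. The ventral striatum level included the ethanol libraries, so genes lower with ethanol met the 2-fold limit more easily. With the pallial list score as a covariate 0 genes passed the shared effect, whereas among genes under 2-fold higher in cortex 89 did. The score itself averaged 4.70 and 4.14 in acute and chronic saline and 2.41 and 2.03 in acute and chronic ethanol. As a covariate it therefore takes up part of any shared ethanol effect, and the count of 0 does not show what the calls came from. Without chronic saline 3 and 6 the count was 1, and without a single library it ran from 56 (acute saline 6 left out) to 814 (chronic saline 5 left out). It was 63 without acute ethanol 3, 67 without chronic saline 3 and 87 without chronic ethanol 6, so the number of calls depended on single libraries of each group.

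Genes of ethanol and synaptic biology gave few differences by exposure history. Among 18 ionotropic glutamate receptor subunits and 17 ethanol-sensitive or voltage-gated channels 0 had an unadjusted edgeR p below 0.05 for the interaction. Among 15 postsynaptic scaffolds there was 1 (Homer3, -0.56 ± 0.24). Of all genes 4.62% were at that p, 2.96% in the negative direction, so single genes per list are no more than the background. Of 10 tested genes of ethanol and acetate metabolism, catalase (Cat), which oxidises ethanol in brain, was the only one at that p (-0.47 ± 0.20). Of the 15 clock genes 1 (Ciart, -0.52 ± 0.20) and of the 15 chaperones 1 (Bag3, -0.96 ± 0.27) were at that p. Bag3, a cochaperone of Hsp70, was at 9.45, 6.30 and 10.1 CPM in acute ethanol. In chronic ethanol it was at 5.22, 5.37 and 5.58 CPM, below the other 9 libraries (0.617% of all genes). Lists for H3K79 and H3K36 methylation enzymes (14 genes), the unfolded protein response (16), splicing regulators (24), cholesterol synthesis (18), nuclear-encoded complex I subunits (18) and mitochondrial mRNAs (13) had 0 genes at that p, with medians from -0.08 to 0.08. Cholesterol synthesis genes were lower in 16 of 18 after acute (2 at an unadjusted p below 0.05, median -0.15) and in 16 of 18 after chronic ethanol (7, median -0.19), where 49.2% and 51.3% of all genes were lower and 3.93% and 5.35% lower at that p. Dot1l, the H3K79 methyltransferase, was at 68.7 ± 10.3 CPM in acute saline, 64.8 ± 7.54 in acute ethanol, 74.8 ± 9.98 in chronic saline and 73.2 ± 5.23 in chronic ethanol (SD, n = 3 each). Its interaction was 0.06 ± 0.18. Cacna1e, Robo3, Sh3bp5, Tgm2, Calb1, Gfra1, Bahcc1, Stat3 and Tmem151b also missed an unadjusted p of 0.05, with interactions from -0.65 for Robo3 to 0.41 for Gfra1. The study names several of these for other regions, such as Cacna1e for cortex and ventral hippocampus.

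At the isoform level 0 of 110993 isoforms (0%) passed the interaction in edgeR, with 5334 (4.81%) at an unadjusted p below 0.05 and a smallest FDR of 0.139, and DESeq2 called 116 (0.105%) of 26 genes. Of the 116, 94 isoforms of 19 genes were negative and 22 of 7 genes positive. Isoforms of a gene share read pairs, so 1 gene can supply many calls: 2610035D17Rik supplied 44 of 87 tested and Neat1 9 of 11. All 11 Neat1 isoforms were negative (-1.41 to -1.14). The long one, Neat1-201 of 22397 bases, was at 24.6, 25.5 and 27.8 CPM in chronic saline against 9.71 to 17.1 CPM in the other 9 libraries (-1.25 ± 0.18). Reads of the shorter forms are counted for the long one too, so its direction is not separate from theirs. Oligodendrocyte genes supplied calls for Mobp (5 of 7 isoforms), Myrf (1 of 6), Cldn11 (1 of 1) and Trf (6 of 9), the iron carrier transferrin that oligodendrocytes make. Trf-201 was at 79.6, 70.7 and 69.3 CPM in acute saline, at 70.2, 103 and 103 CPM in acute ethanol, at 85.6, 103 and 129 CPM in chronic saline and at 68.0, 78.5 and 55.0 CPM in chronic ethanol, the order of the myelin genes. Among positive calls Ets2-202, of the transcription factor Ets2, was at 5.79, 6.19 and 6.37 CPM in chronic saline. These lay below the other 9 (7.92 to 11.8 CPM), with an interaction of 0.79 ± 0.16. The share of all isoforms with such a separation is not given here. Calls also came from Prox1 (3 of 3), Cobll1 (5 of 13), Tns1 (4 of 23), Lpar1 (4 of 8), Xlr3b (3 of 3), Cpne6 (5 of 7) and Plch2 (2 of 12).

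Interactions of the leading genes were compared with those in the other 4 regions. Neat1 gave -0.39 in cortex, -0.23 in dorsal hippocampus, 0.35 in ventral hippocampus and -0.43 in dorsal striatum, none at an FDR below 0.1. Prox1 gave -0.17, 0.51, -0.29 and 0.03, Cobll1 -0.04, -0.21, 0.69 and -0.07, and Scg2 0.13, 0.28, -0.01 and 0.15 in the same order, also without a call. The dorsal striatum values leave out the incomplete chronic saline library, and with it, on the chromosomes complete there, they were -0.067 for Neat1, 0.39 for Prox1, 0.23 for Cobll1 and -0.018 for Scg2. Differences between regions were not tested, and part of the mice gave tissue to several regions.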

How the data were processed

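Gene and isoform counts of the 12 ventral striatum libraries were taken as deposited. Per the labels and the methods of the study, the authors used cutadapt 5.0 for trimming, STAR 2.7.10a for alignment to the GRCm39 build and featureCounts 2.0.6 for stranded pair counting, giving a multi-mapped or overlapping pair to every feature it met. The deposited counts are not normalized.

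A feature was kept if 2 or more libraries of a group held 5 or more counts (20901 genes, 110993 isoforms). Group means were fitted in edgeR 4.0.16 (R 4.3.3; TMM scaling, quasi-likelihood F test), with 4 contrasts: interaction, acute, chronic and the mean of both effects. Benjamini-Hochberg FDR below 0.1 was called. Contrasts between groups of the same treatment were added after seeing the data. DESeq2 1.42.0 was the alternative tool. CPM are means over 3 libraries with SD, and log2 fold changes carry SE. List levels are mean log2 CPM with a prior count of 2.

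Groups came from the titles. Mice are separate animals, and p-values rest on the spread within the 4 groups of 3, pooled over groups and moderated across genes. The tissue, the gene lists (40) and the named genes were chosen with earlier results of these data known. Named genes were those called for the interaction by either tool and the 10 of smallest interaction p per direction with a mean of at least 20 counts. Genes that the study names for any region, or that are tied to a mark it tested in the ventral striatum, were added. So were list members with an unadjusted edgeR p below 0.05 or defining a cell type, and the 5 of smallest shared p per direction. A few others are values chosen after they were seen. The alternatives were other scaling, low-count filters, covariates (pallial, ventral striatum and myelin list scores, the last 2 chosen after seeing the data), the replicate number as a block, and libraries left out, of which leaving out chronic saline 3 and 6 together was chosen after seeing the data. The fits were tested on simulated data. Promoters came from RefSeq. The other regions were fitted the same way, the dorsal striatum without chronic saline 2, which lacks counts on several chromosomes. Gene ends are the furthest end of the isoforms, as those of the gene table fall short in some genes. Single values of some list members are not reported here. All 62 columns were mapped by name. Depth (10142093 to 20428676 counts) and 3 mice per group limit the precision, and genes of few counts carry the larger SE.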

Additional observations from a re-analysis of the deposited data

Results flagged for a closer look

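Of the results above, 4 genes had an ethanol effect that differed between the acute and the chronic paradigm by a test of the difference itself, the interaction term in DESeq2 at an FDR below 0.1, while edgeR called none of them. DESeq2 gave an interaction of -1.23 for Neat1, -1.33 for Prox1, -1.26 for Cobll1 and -1.62 for Gm55524 on the log2 scale. In Neat1 the 3 chronic saline libraries lay above the other 9, in Prox1 the 3 chronic ethanol libraries lay below the other 9, and in Cobll1 saline and ethanol separated in opposite directions in the 2 paradigms. Separations like those of Neat1 and Prox1 are more frequent among genes picked by their interaction p than among all genes. The share of genes separating as Cobll1 did was not counted. Gm55524 lies inside Neat1 and shares its reads, so both stand for 1 observation. The values of these genes without single libraries kept their sign, from -1.38 to -1.12 for Neat1, from -1.44 to -1.08 for Prox1, from -1.39 to -1.11 for Cobll1 and from -1.86 to -1.43 for Gm55524. Groups of 3 were not searched for outlying samples.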

How the results depend on the processing

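The interaction gave 0 genes and 0 isoforms in edgeR. DESeq2 gave 4 genes and 116 isoforms, and dropping the low-count filter 195 genes (50 higher, 145 lower) and 807 isoforms. Leaving out single libraries gave 0 to 2 genes and 0 to 14 isoforms. Acute calls (0) became 133 in DESeq2, 475 with no filter, 8 from the 6 acute libraries alone, 44 without chronic saline 3 and 6, and 0 to 45 without single libraries (45 without acute saline 2, 40 without chronic saline 5). Chronic calls (1) became 354 in DESeq2, 898 with no filter, 5 with at least 10 counts in every library, 0 with the pallial, ventral striatum or myelin covariate, from the 6 chronic libraries alone or without chronic saline 3 and 6, and 0 to 352 without single libraries (352 without chronic saline 5, 56 without acute ethanol 2). Shared calls (261) became 767 in DESeq2, 1138 with no filter, 0 with the pallial or ventral striatum covariate, 89 among genes under 2-fold higher in cortex, 1 without chronic saline 3 and 6, and 56 to 814 without single libraries (56 without acute saline 6, 63 without acute ethanol 3, 67 without chronic saline 3, 87 without chronic ethanol 6, 109 without chronic ethanol 4, 139 without acute saline 4, 140 without chronic ethanol 1, 814 without chronic saline 5). The 16 myelin genes at an unadjusted p below 0.05 became 0 with their own score as covariate, as that fit removes them by construction, and 13 to 16 without single libraries. The pallial and ventral striatum scores themselves differed by treatment, so as covariates they take up part of an ethanol effect. The cause of the other changes was not tested.

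With the replicate number as a block, the interaction gave 0 genes and 4 isoforms, acute ethanol 1, chronic ethanol 5 and the shared effect 693 genes, and 10 of 16 myelin genes kept an unadjusted p below 0.05. The numbers do not pair mice: in 7 pairs of the same number, deviations from the group mean correlated at -0.05 to 0.09, within the range of different numbers (-0.21 to 0.23).

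Of 74 genes named by rule or with an unadjusted interaction p below 0.05, 23 changed sign somewhere. The block turned Plin4 (0.25), Calb1 (0.71) and Bahcc1 (0.31), and the pallial covariate turned Calb1 (0.0076). The ventral striatum covariate turned Xlr3a (-0.067), Fkbp5 (0.086), Tmem151b (0.017) and F5 (0.12), and leaving out chronic saline 3 and 6 turned the same genes (-0.012, 0.10, 0.043 and 0.18). The myelin covariate turned Cacna1e (-0.37), Fkbp5 (0.22), Mt2 (0.23), Plin4 (0.74), Bahcc1 (0.017), Dot1l (-0.20), Ttr (3.14), F5 (0.72), Tmem72 (2.59), Prlr (2.98), Sostdc1 (4.79), Gfap (0.41), Mbp (0.12), Mog (0.32), Mag (0.13), Cnp (0.084), Mal (0.010), Opalin (0.36) and Bcas1 (0.17). Without single libraries the interaction ran from -0.13 to 0.081 for Sh3bp5, -0.13 to 0.14 for Fkbp5, -0.23 to 0.11 for Tmem151b, -0.66 to 0.16 for Plin4, -0.19 to 0.13 for Calb1, -0.17 to 0.063 for Bahcc1 and -0.073 to 0.16 for Dot1l. With the incomplete chronic saline library in the dorsal striatum fit, a choice made after seeing the data, several interactions in dorsal striatum changed sign. Among them were Cobll1 (0.23), Scg2 (-0.018), Lpar1 (0.10), Tmbim1 (0.011), Camk1g (-0.034) and the myelin genes Cldn11 (0.17), Ermn (0.19) and Gjc3 (0.15). Among the genes given without chronic saline 3 and 6, Neat1, Prox1, Cobll1, Xlr3b, Scg2 and Cpne6 kept their sign there. With 3 mice per group, effects near the size of their SE were not detectable.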
